A study of Mus musculus with 33 samples.

Results

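The data described here are forebrain RNA profiles of C57BL/6NJ (B6N) mice with and without the tRNA gene n-Tr20. They are 8 of the 33 libraries of the series, chosen by their labels: 4 from n-Tr20 -/- mice (knockout 1 to 4) and 4 from mice labelled wild-type for n-Tr20 (B6N 1 to 4). All 8 mice were C57BL/6NJ, aged 8 weeks, and their libraries were labelled batch 1. RNA was depleted of ribosomal RNA and sequenced from strand-marked libraries, so RNAs without a poly(A) tail and unspliced RNAs were also read. The labels give the knockout as n-Tr20 -/- and name no Cre driver or transgene for these mice. Another 8 forebrain libraries of batch 1, from C57BL/6J mice with and without an n-Tr20 transgene, entered the fit only to estimate the spread between animals. C57BL/6J mice without the transgene are described for this series as hypomorphic (reduced in function) for n-Tr20. These libraries are therefore not all normal for n-Tr20 where their values are given below. Poly(A) RNA from hippocampus, 3 B6N and 3 knockout libraries, was used as a separate set of samples.

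n-Tr20 is a nuclear arginine tRNA gene of the isodecoder family that reads AGA codons, and it is expressed in the central nervous system. When a tRNA is scarce, ribosomes can stall at its codons. Stalled ribosomes can activate the kinase GCN2, which phosphorylates the translation initiation factor eIF2 and begins the integrated stress response. That response lowers translation of most mRNAs and raises translation of ATF4, a transcription factor whose known targets include amino acid synthesis enzymes, amino acid transporters and aminoacyl-tRNA synthetases, the enzymes that load tRNAs with amino acids.

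The libraries held 20.8 M to 24.2 M (M, 1000000) estimated counts in B6N and 17.8 M to 23.5 M in the knockout. Values are given in CPM (counts per 1000000 of the scaled library total) unless said otherwise. The 8 animals were male by Xist (0.659 to 1.74 CPM) and the Y-linked Ddx3y (51.8 to 62.0 CPM). Genes of neurons, striatum and myelin were well expressed in every library. The vesicular glutamate transporter Slc17a7 was at 535 to 627 CPM and the striatal phosphatase inhibitor Ppp1r1b at 122 to 145 CPM. The myelin gene Mbp was at 1000 to 1220 CPM. The tRNA itself is not measured in these libraries, so the label n-Tr20 -/- had no direct check. The choroid plexus gene Ttr lay at 118 to 170 CPM in B6N 1, B6N 2 and B6N 4 and at 256 CPM in knockout 3, against 1.87 to 2.73 CPM in the other 4 libraries. The summed level of 17 choroid plexus markers ran from 247 to 522 CPM in B6N and from 241 to 711 CPM in the knockout, no marker was at 0 in all libraries, and none of the 17 was called by edgeR or reached an unadjusted p under 0.05 (median log2 fold change -0.30). With these markers' mean level as a covariate the gene fit described next gave 445 calls in place of 481.

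Loss of n-Tr20 changed the forebrain transcriptome modestly in size and widely in number. Among 25151 genes tested, 278 rose (1.11%) and 203 fell (0.807%) at an adjusted p under 0.05 (edgeR quasi-likelihood test, Benjamini-Hochberg), or 1.91% of genes in either direction. The median change was 1.17-fold in the risen genes and 1.19-fold in the fallen genes. Changes over 1.5-fold were seen in 24 risen and 19 fallen genes, and changes over 2-fold in 7 and 6. Of the called genes 449 were protein coding, 11 lincRNA and 5 antisense. In 453 of the 481 called genes no knockout library overlapped a B6N library. Over all genes tested, knockout libraries lay all above B6N in 4.37% and all below in 4.21%. In the edgeR test 12.7% of genes reached an unadjusted p under 0.05, the share to set beside such counts below. The gene fit called 157 genes when B6N 3 and knockout 3, which differ from their groups in choroid plexus RNA, were both left out, and 174 when estimated transcript lengths were used as an offset.

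**Figure D1:**
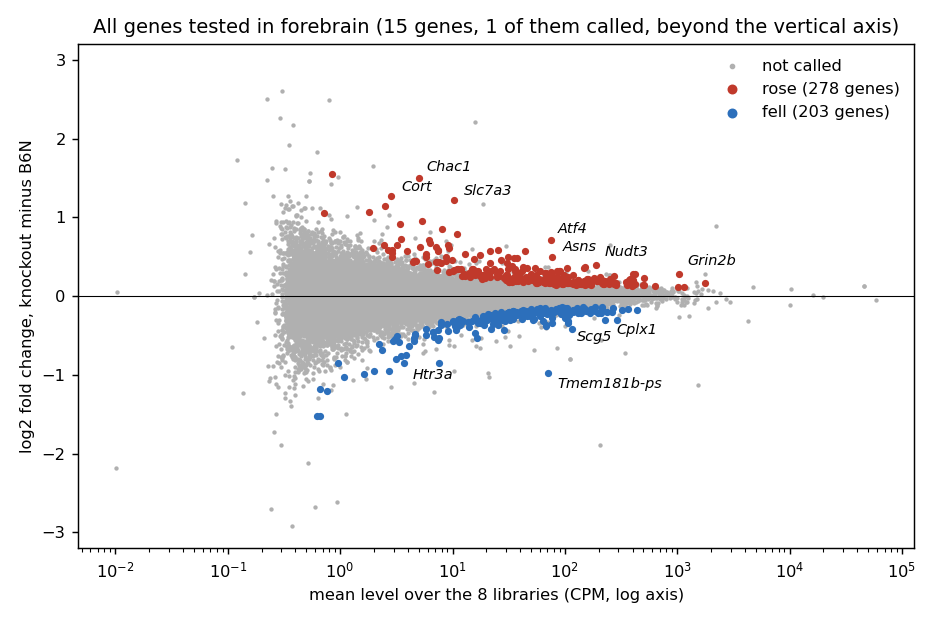
Log2 fold change (knockout minus B6N) of each gene tested against its mean level in CPM (log axis), with called genes coloured by direction. Most of the 278 risen and 203 fallen genes lie close to 0, with Chac1, Slc7a3 and Cort among the exceptions on the upper side; 15 genes, 1 of them called, lie beyond the vertical axis.

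The known ATF4 response was raised in part. In a list of ATF4 targets and other integrated stress response genes, 18 of 38 tested genes rose and 0 fell, with a median log2 fold change of 0.29 against -0.0014 over all genes tested. Atf4 itself was at 57.4, 57.1, 57.4 and 54.7 CPM in B6N and at 90.5, 96.4, 95.0 and 87.7 CPM in the knockout, or 0.71 ± 0.04 higher on the log2 scale (fold change ± SE, as for all genes below; adjusted p = 3.3e-13). Chac1, which degrades glutathione, was at 3.33, 2.51, 2.12 and 2.69 CPM in B6N and at 7.25, 7.29, 8.12 and 7.24 CPM in the knockout (1.496 ± 0.126, adjusted p = 3.86e-09). The groups did not overlap for either gene, and the knockout libraries of each stood close together.

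Other members rose by less or from low levels. Asns, the enzyme that makes asparagine, went from 60.5 to 67.6 CPM in B6N to 87.2 to 94.9 CPM in the knockout (0.50 ± 0.05, adjusted p = 2.86e-08). Stc2, which encodes a secreted glycoprotein, was at 1.95, 1.45, 1.63 and 1.2 CPM in B6N and at 3.54, 3.16, 3.38 and 3.66 CPM in the knockout (1.14 ± 0.17, adjusted p = 7.12e-05). Atf5, a transcription factor related to ATF4, rose by 0.68 ± 0.11 (adjusted p = 0.00032). Sesn2, a sensor of leucine that inhibits mTORC1, rose by 0.57 ± 0.09 (adjusted p = 0.00032). Nupr1, another ATF4 target, was not called (0.40 ± 0.12, adjusted p = 0.0717).

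Promoters are shown here because the ATF4 target genes moved together. ATF4 binds with C/EBP partners to a composite element whose core can be written TGATGNAA. Each promoter window held 300 bases of RefSeq sequence (build GRCm38.p6), 250 before the annotated start and 50 after, and both strands were searched. The element overlaps no other motif searched except where bases of TGACGTCA, the cyclic AMP response element, coincide with it. Windows below are 5′ to 3′ on the strand of the gene, with the match in capitals, and end at the annotated start where it is near. A match written TTGCATCA or TTTCATCA is the element read from the other strand.
Chac1, chr2:119351019-119351086, plus strand: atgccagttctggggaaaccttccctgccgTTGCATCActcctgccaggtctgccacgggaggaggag
Asns, chr6:7693210-7693262, minus strand: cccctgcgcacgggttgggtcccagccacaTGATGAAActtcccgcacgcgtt
Gars, chr6:55037941-55038000, plus strand: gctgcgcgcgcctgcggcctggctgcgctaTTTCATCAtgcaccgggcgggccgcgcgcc
Tars, chr15:11399659-11399703, minus strand: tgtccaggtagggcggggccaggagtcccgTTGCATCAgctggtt

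The matches began 193 bases before the start in Chac1, 23 in Asns, 30 in Gars and 15 in Tars. The element was found in any window of 479 of 14412 tested genes with a promoter sequence (3.32%), in 15 of 204 risen genes (7.35%) and in 8 of 152 fallen genes (5.26%). Among risen cytosolic tRNA synthetase genes with a promoter sequence it was found in 5 of 7 (71.4%: Aars, Gars, Iars, Tars and Yars; the Aars window belongs to a start inside the annotated span of the gene), and among risen genes of the ATF4 list in 3 of 14 (21.4%: Asns, Chac1 and Gars). Risen genes outside the 5 lists of ATF4, amino acid and tRNA synthetase genes held it in 7 of 182 (3.85%), close to the share over all genes. TGACGTCA was found in 2.97% of all promoters, 1.96% of risen and 2.63% of fallen genes. Such matches describe the letters of these windows and are not binding sites.

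Most cytosolic aminoacyl-tRNA synthetases rose and those of mitochondria did not pass the test. Among the 20 cytosolic enzymes 12 rose and 1 fell, with a median log2 fold change of 0.17. Cars, for cysteine, was at 31.1, 30.6, 30.6 and 32 CPM in B6N and at 42.4, 46, 44.9 and 41 CPM in the knockout (0.49 ± 0.05, adjusted p = 8.45e-08). Nars, for asparagine, was at 125 to 135 CPM in B6N and at 157 to 172 CPM in the knockout (0.35 ± 0.04, adjusted p = 5.72e-07). Neither gene had overlapping groups. Gars (0.32 ± 0.04), Yars (0.30 ± 0.04) and Sars (0.27 ± 0.04), for glycine, tyrosine and serine, rose by similar amounts.

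Hars, the histidine enzyme, was the 1 that fell. It was at 65.3, 65.4, 65.4 and 63.2 CPM in B6N and at 51.5, 56.6, 55.2 and 53.3 CPM in the knockout (-0.26 ± 0.04, adjusted p = 0.000253), again without overlap. Of 17 mitochondrial synthetases 0 were called by edgeR and 3 were higher at an unadjusted p under 0.05, with a median log2 fold change of 0.07. Over all genes tested 12.7% reached that p in either direction. Iars2, the mitochondrial isoleucine enzyme, was nearest the threshold among them (0.14, adjusted p = 0.103).

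Transporters and enzymes of amino acid supply rose selectively. Of 38 amino acid transporters 5 rose and 2 fell, against 1.11% and 0.807% of all genes tested. Slc7a3, a carrier of arginine and other cationic amino acids, was at 6.86, 4.93, 7.0 and 6.05 CPM in B6N and at 18, 14.9, 13 and 12.3 CPM in the knockout (1.22 ± 0.13, adjusted p = 3.25e-06). Its family member Slc7a1 was at 36.5 to 37.3 CPM in B6N and at 44.3 to 50.1 CPM in the knockout (0.36 ± 0.05, adjusted p = 1.38e-05). The large neutral amino acid carrier Slc7a5 (0.50 ± 0.08) and the alanine and serine carrier Slc1a4 (0.36 ± 0.05) also rose. Among those that fell was the brain proline transporter Slc6a7 (-0.30 ± 0.05).

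In the list of serine, glycine and one-carbon enzymes 5 of 25 rose, 0 fell and the median log2 fold change was -0.0011, at the median of all genes. The 2 with large changes were enzymes of the mitochondrial folate pathway. Mthfd2 was at 3.62, 3.65, 3.5 and 3.9 CPM in B6N and at 7.64, 6.8, 7.2 and 6.87 CPM in the knockout (0.95 ± 0.12, adjusted p = 4.02e-06). Aldh1l2 was at 5.52 to 5.9 CPM in B6N and at 9.74 to 11.2 CPM in the knockout (0.84 ± 0.10, adjusted p = 1.26e-06). Both were separated without overlap in all 8 libraries.

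The enzymes of serine synthesis moved less. Psat1 rose by 0.20 ± 0.05, Psph by 0.33 ± 0.08 and the mitochondrial serine hydroxymethyltransferase Shmt2 by 0.31 ± 0.08, while Phgdh, the first enzyme of the pathway, did not pass the test (0.14, adjusted p = 0.173). Leaving out 1 library ended the calls of Psat1 (adjusted p up to 0.0851, without B6N 4), Psph (0.12, without knockout 2) and Shmt2 (0.197, without knockout 2). Aldh18a1, which begins proline synthesis, rose by 0.42 ± 0.06 and the branched-chain aminotransferase Bcat1 by 0.29 ± 0.04. With estimated transcript lengths as an offset the adjusted p was 0.103 for Aldh18a1, 0.121 for Bcat1 and 0.113 for Slc7a5.

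**Figure D2:**
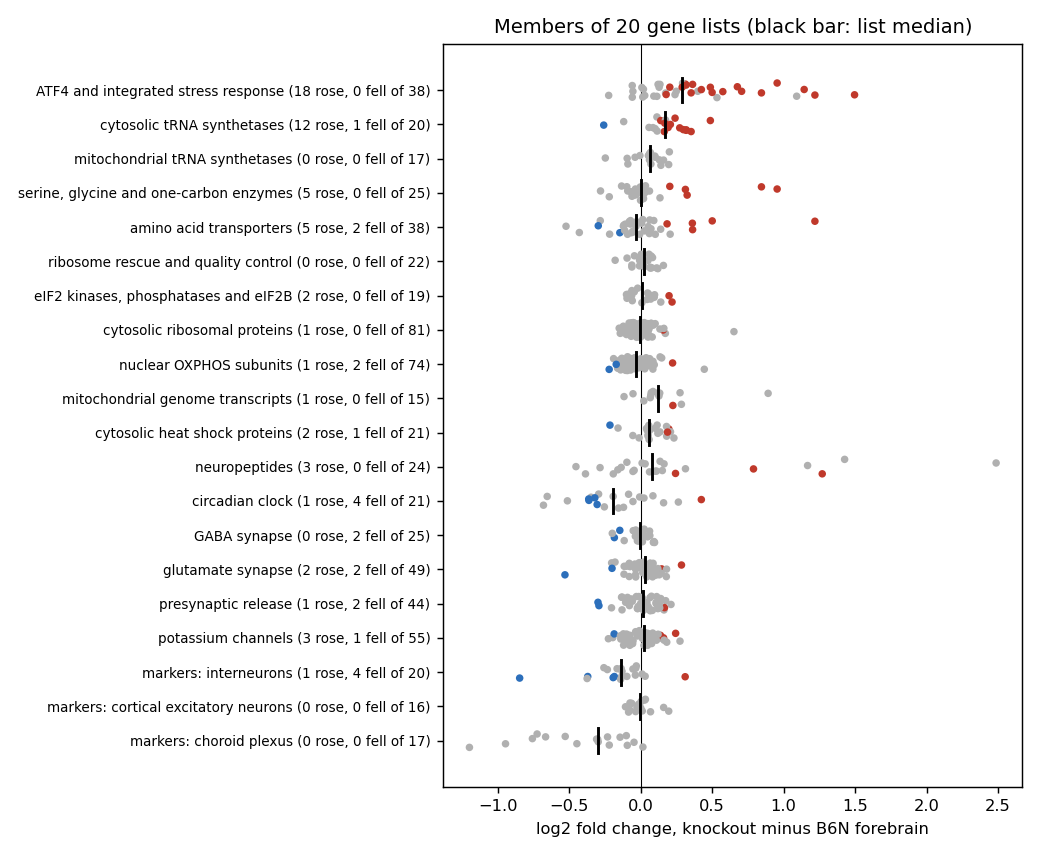
For lists selected from the 46 gene lists, the log2 fold changes (knockout minus B6N) of tested genes as points, with the list median and called genes marked. ATF4 and cytosolic tRNA synthetase genes lie mostly above 0 with medians of 0.29 and 0.17. Most of the other lists shown are centred near 0.

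Other lists of stress and translation control differed in their share of called genes. Over all genes tested 1.11% rose, 0.807% fell and 12.7% reached an unadjusted p under 0.05. These lists are small, so that 1 risen gene already puts a list above the share of all genes that rose. None was tested as a set. In the list of ribosome rescue and quality control genes 0 of 22 were called by edgeR, with 3 higher and 1 lower at an unadjusted p under 0.05. Among 19 genes of eIF2 and its kinases and phosphatases 2 rose, the eIF2 subunits Eif2s2 (0.20 ± 0.05) and Eif2s1 (0.22 ± 0.06). In each case leaving out knockout 1 ended the call (adjusted p = 0.0912 and 0.238). Sesn2 was the 1 called gene among 32 of the mTORC1 pathway. Of 81 cytosolic ribosomal proteins 1 rose, Rpl23 (0.16 ± 0.04; adjusted p = 0.179 without knockout 3).

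The unfolded protein response of the endoplasmic reticulum gave 1 risen gene of 24, Sel1l, a partner of the ubiquitin ligase for misfolded proteins (0.17 ± 0.04; adjusted p = 0.0855 without knockout 1). Among 21 cytosolic heat shock genes Hspa4 (0.20 ± 0.04) and the HSP90 cochaperone Ahsa1 (0.19 ± 0.05) rose and the HSP40 gene Dnajb1 fell (-0.21 ± 0.06). The calls of Ahsa1 (adjusted p = 0.181 without knockout 1) and Dnajb1 (0.285 without knockout 3) ended when 1 library was left out, and that of Hspa4 with the length offset (0.116). Gpx4, which reduces lipid peroxides, fell by 0.19 ± 0.04 on the log2 scale (adjusted p = 0.00531). In the list of p53 targets 3 of 15 rose, 1 of them Sesn2, which is also in the ATF4 list. The others were the cell cycle inhibitor Cdkn1a (0.62 ± 0.13) and Ccng1 (0.24 ± 0.06; adjusted p = 0.174 without knockout 3). Without B6N 3 and knockout 3 the calls of Hspa4 (adjusted p = 0.0703), Gpx4 (0.0832) and Cdkn1a (0.077) ended as well. No sterol synthesis gene of 24 and no interferon gene of 25 was called by edgeR, with 5 and 3 genes at an unadjusted p under 0.05. The share at that p over all genes tested was 12.7%.

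The ATF4, amino acid and tRNA synthetase lists held 31 of the 278 risen and 3 of the 203 fallen genes, leaving 247 and 200 outside them. Among these were several of the best supported changes. Nudt3, a phosphohydrolase that acts on inositol pyrophosphates and on mRNA caps, was at 165, 167, 162 and 156 CPM in B6N and at 208, 227, 211 and 210 CPM in the knockout (0.40 ± 0.04, adjusted p = 3.09e-08). Adar, the adenosine deaminase that edits double-stranded RNA, was at 134, 135, 129 and 129 CPM in B6N and at 170, 175, 168 and 165 CPM in the knockout (0.36 ± 0.04, adjusted p = 6.14e-07). The groups of both were far apart relative to their spread.

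A pair of X-linked neuronal genes of 1 family rose with them. Bex1 was at 17.7, 17.9, 16.6 and 16.7 CPM in B6N and at 25.6, 26.9, 25.6 and 24.6 CPM in the knockout (0.58 ± 0.06, adjusted p = 2.75e-07). Bex2 was at 87.5 to 95.5 CPM in B6N and at 112 to 123 CPM in the knockout (0.36 ± 0.04, adjusted p = 4.9e-06). Trim66, a bromodomain protein gene, rose by 0.48 ± 0.05 (adjusted p = 6.14e-07), and A830018L16Rik by 0.32 ± 0.04 (adjusted p = 2.03e-06; 0.0731 with the length offset).

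Signalling peptides and growth factors were among the genes with the larger rises. In the neuropeptide list 3 of 24 tested genes rose and 0 fell, against 1.11% and 0.807% of all genes tested. Cort, which encodes the interneuron peptide cortistatin, was at 2.05, 1.36, 1.87 and 1.33 CPM in B6N and at 4.16, 4.31, 3.78 and 3.7 CPM in the knockout (1.27 ± 0.15, adjusted p = 1.9e-06). Adcyap1, which encodes the peptide PACAP, was at 7.67, 8.89, 7.49 and 7.96 CPM in B6N and at 14.7, 15.6, 15.8 and 9.45 CPM in the knockout (0.79 ± 0.14, adjusted p = 0.00596). Its lowest knockout value, in knockout 4, stood well below the other three and still above every B6N value.

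Tac1, the precursor of substance P, rose by 0.24 ± 0.06, a call that ended without B6N 3 (adjusted p = 0.186). Bdnf, the neurotrophin, was at 20.9, 18.9, 21.6 and 20.6 CPM in B6N and at 31.8, 32.9, 30.7 and 27.6 CPM in the knockout (0.59 ± 0.07, adjusted p = 8.37e-06). Vgf, a secreted neuronal protein precursor, was at 36.9, 38.5, 36.6 and 30.5 CPM in B6N and at 52.9, 57.1, 57.4 and 44.2 CPM in the knockout (0.57 ± 0.10, adjusted p = 0.00647). All 4 knockout libraries lay above all B6N libraries for both. The adjusted p was 0.251 for Adcyap1 with the length offset and 0.0693 for Vgf without B6N 3 and knockout 3.

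**Figure D3:**
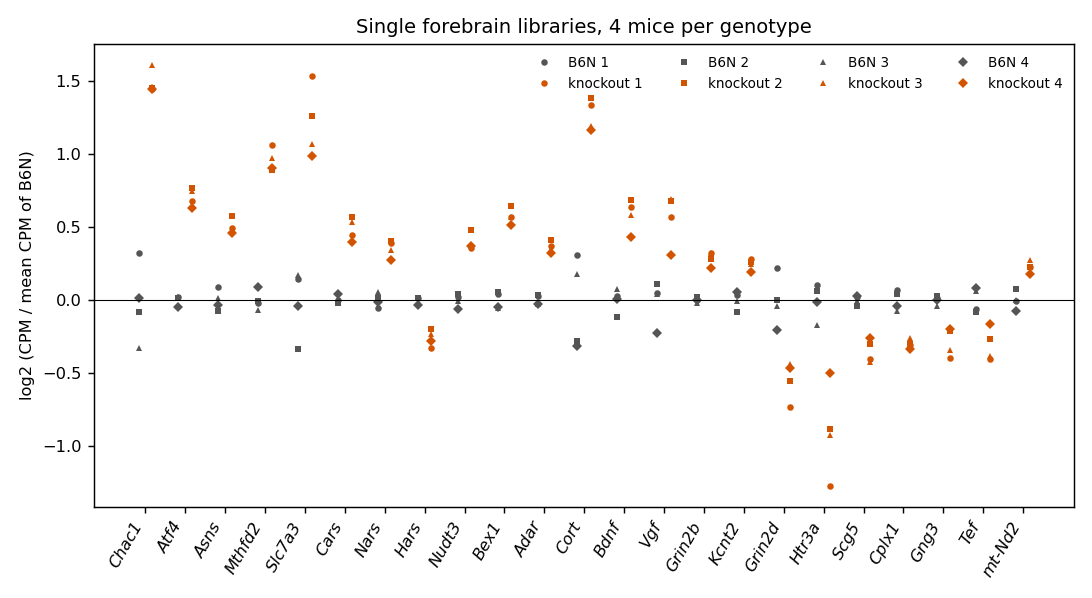
Log2 ratio of the CPM in each library to the mean CPM of the 4 B6N libraries for selected genes, with B6N in grey, knockout in orange and 1 symbol per replicate number. Chac1, Slc7a3 and Cort stand highest and Htr3a lowest, and the knockout points of each gene plotted lie outside the range of its B6N points. The genes were chosen from the called genes, of which 453 of 481 had groups without overlap.

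Among the fallen genes with the smallest p were Scg5 and Cplx1. Scg5, which encodes a chaperone of the prohormone convertase PC2, was at 121, 116, 119 and 122 CPM in B6N and at 90.5, 96.9, 89 and 100 CPM in the knockout (-0.34 ± 0.04, adjusted p = 1.84e-06). Cplx1, a complexin that regulates vesicle fusion, was at 265, 260, 239 and 245 CPM in B6N and at 204, 205, 211 and 200 CPM in the knockout (-0.30 ± 0.04, adjusted p = 5.98e-05). Neither gene had overlapping groups.

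Smaller falls were precise. The microtubule-binding protein gene Eml2 fell by 0.35 ± 0.05 on the log2 scale, the G protein subunit gene Gng3 by 0.28 ± 0.05, the tubulin cofactor gene Tbcd by 0.25 ± 0.04, Ccdc136 by 0.30 ± 0.05, Mllt11 by 0.22 ± 0.04 and the vesicle traffic GTPase gene Rab2a by 0.21 ± 0.04. Rab2a shows how small a difference these libraries resolved, at 149 to 153 CPM in B6N and 128 to 132 CPM in the knockout (adjusted p = 0.000496). The call of Tbcd ended with the length offset (adjusted p = 0.179).

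The larger falls were in less expressed genes or in gene copies. Htr3a, the serotonin-gated channel of a class of interneurons, was at 5.1, 4.97, 4.23 and 4.72 CPM in B6N and at 1.97, 2.58, 2.5 and 3.37 CPM in the knockout (-0.85 ± 0.14, adjusted p = 0.000532). The transcription factor gene Klf4 was at 3.43 to 4.77 CPM in B6N and at 1.93 to 2.75 CPM in the knockout (-0.80 ± 0.14, adjusted p = 0.00121). Pip5kl1 fell by 0.76 ± 0.14 and Flywch2 by 0.63 ± 0.11 on the log2 scale. Tmem181b-ps (-0.98 ± 0.10), Tmem181a (-0.42 ± 0.04) and Dynlt1b (-0.85 ± 0.11) also fell. They have near-identical copies on mouse chromosome 17, so how their reads were divided between copies is uncertain. In hippocampus their log2 fold changes were -0.0035, -0.0027 and -0.07, with adjusted p-values of 0.952 to 0.995. In forebrain TPM (defined below) Tmem181b-ps-202 was at 5.09 to 6.97 in B6N and 3.08 to 3.96 in the knockout. It was at 2.5 to 3.94 in C57BL/6J with or without the transgene. The same ranges were 9.96 to 14.2, 5.48 to 7.07 and 4.34 to 7.49 for Tmem181b-ps-204. They were 7.88 to 9.05, 4.05 to 4.95 and 3.69 to 6.59 for Dynlt1b-201. For Tmem181b-ps-203, C57BL/6J (1.69 to 4.75) overlapped B6N (3.39 to 6.29). Whether these falls came from loss of n-Tr20 was not tested.

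Receptors and channels of the synapse moved individually. Of 49 glutamate synapse genes 2 rose and 2 fell, with a median log2 fold change of 0.03. Over all genes tested 1.11% rose and 0.807% fell. Of the 4821 best expressed protein-coding genes with a known span, 150 rose outside the ATF4, amino acid and synthetase lists and 94 fell. Neither this list nor those of the next paragraph were tested as sets. Grin2b, an NMDA receptor subunit, was at 931, 942, 918 and 929 CPM in B6N and at 1160, 1130, 1160 and 1080 CPM in the knockout (0.29 ± 0.04, adjusted p = 1.38e-05). Grin2d, an NMDA receptor subunit found largely in interneurons, was at 6.29, 5.41, 5.25 and 4.68 CPM in B6N and at 3.26, 3.69, 4 and 3.91 CPM in the knockout (-0.53 ± 0.11, adjusted p = 0.0069). These subunits of 1 receptor therefore moved in opposite directions, each without overlap, although the call of Grin2b ended with the length offset (adjusted p = 0.109) and that of Grin2d there (0.294) and without B6N 1 (0.0503). The AMPA receptor subunit gene Gria3 rose by 0.15 ± 0.04 (adjusted p = 0.102 without knockout 2) and the synaptic adhesion gene Lrrtm2 fell by 0.20 ± 0.05 on the log2 scale (adjusted p = 0.117 without knockout 3).

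In the presynaptic list 1 of 44 rose and 2 fell, where 1.11% of all genes tested rose and 0.807% fell. Unc13b, a vesicle priming factor, rose by 0.17 ± 0.04, while Cplx1 and the calcium sensor gene Syt2 (-0.29 ± 0.07) fell. Of 55 potassium channel genes 3 rose and 1 fell. Kcnt2, a sodium-activated potassium channel, was at 61 to 67.1 CPM in B6N and at 73.7 to 78.5 CPM in the knockout (0.24 ± 0.04, adjusted p = 0.000496). Kcnma1 (0.14 ± 0.03) and Kcnh7 (0.16 ± 0.04) rose, the channel partner gene Kcnip2 fell (-0.19 ± 0.05), and the calcium channel subunit gene Cacnb4 rose (0.15 ± 0.04). The calls of Cplx1 and Kcnt2 held in all 8 fits that left out 1 library, and those of the other 6 genes ended in at least 1 of them (adjusted p up to 0.0824 for Unc13b, 0.0985 for Syt2, 0.0725 for Kcnma1, 0.117 for Kcnh7, 0.165 for Kcnip2 and 0.105 for Cacnb4; knockout 2 for Unc13b, Kcnh7 and Kcnip2, knockout 1 for Syt2, B6N 4 for Kcnma1 and B6N 2 for Cacnb4).

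Markers of inhibitory interneurons were on balance lower. In bulk RNA, fewer cells of a type and less RNA per cell cannot be told apart. Of 20 interneuron markers 4 fell (Gad1, Htr3a, Ndnf and Reln) and 1 rose, with a median log2 fold change of -0.14. For all genes tested the shares were 0.807% fallen and 1.11% risen. The markers were listed with earlier results of these data known, so these counts only describe the list. Their summed level was 976 to 1070 CPM in B6N and 941 to 969 CPM in the knockout, without overlap, and no marker was at 0 in all libraries. The sum of 16 cortical excitatory markers was 1400 to 1440 CPM in B6N and 1320 to 1430 CPM in the knockout, with 0 called by edgeR and 1 at an unadjusted p under 0.05.

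The GABA-synthesis enzyme gene Gad1 was at 202, 204, 191 and 191 CPM in B6N and at 174, 165, 180 and 176 CPM in the knockout (-0.18 ± 0.04, adjusted p = 0.0165; 0.0981 without knockout 2). Reln, the secreted matrix protein of superficial interneurons, fell by 0.19 ± 0.04 on the log2 scale (0.0587 without B6N 2), and Ndnf, a marker of neurogliaform cells, by 0.37 ± 0.07 (adjusted p = 0.00159; 0.8 with the length offset). The peptide gene Sst was not called (-0.14, adjusted p = 0.204). Lamp5, which marks neurogliaform interneurons and some cortical excitatory neurons, rose (0.31 ± 0.05, adjusted p = 0.00143), as did Cort and Cox6a2, a cytochrome oxidase subunit gene at 2.52, 2.6, 1.91 and 2.49 CPM in B6N and 4.66, 4.94, 4.52 and 3.79 CPM in the knockout (0.91 ± 0.13, adjusted p = 7.4e-05).

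Genes of the circadian clock were mostly lower, with a median log2 fold change of -0.19 over 21 genes, 1 risen and 4 fallen. Among all genes tested 1.11% rose and 0.807% fell. Tef, an output transcription factor of the clock, was at 305, 301, 333 and 337 CPM in B6N and at 241, 265, 245 and 284 CPM in the knockout (-0.30 ± 0.05, adjusted p = 0.00219). Arntl, the core activator BMAL1, which peaks at the opposite time of day, was at 25 to 28.1 CPM in B6N and at 28.4 to 39.2 CPM in the knockout (0.42 ± 0.09, adjusted p = 0.0147; 0.0587 without B6N 4). Per3 (-0.36 ± 0.08), Nr1d2 (-0.32 ± 0.07) and Bhlhe41 (-0.36 ± 0.09) fell, and their calls ended without knockout 3 (adjusted p = 0.109 for Per3 and 0.108 for Bhlhe41) or knockout 2 (0.121 for Nr1d2). The time of day at which tissue was taken is not given in the labels used here, and its part in these values was not tested. Among 36 immediate-early genes, which respond to neuronal activity, Bdnf rose and Klf4 fell, with a median of -0.13.

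Of 74 nuclear genes of oxidative phosphorylation 1 rose and 2 fell, while 1.91% of all genes tested were called in either direction. The median log2 fold change of the list was -0.03, and 24 of the 74 were above 0. In the list 14 genes were lower and 6 higher at an unadjusted p under 0.05. Over all genes tested 12.7% reached that p in either direction. Uqcrb rose (0.22 ± 0.05; adjusted p = 0.0828 without B6N 4), and the ATP synthase subunit genes Atp5j2 (-0.22 ± 0.05) and Atp5g1 (-0.17 ± 0.05; 0.227 without B6N 1) fell. Of 15 mitochondrial genome transcripts 13 had a log2 fold change above 0 and the median was 0.12. Of these mt-Nd2, a complex I subunit, was called, at 470, 496, 471 and 448 CPM in B6N and 550, 550, 571 and 533 CPM in the knockout (0.23 ± 0.05, adjusted p = 0.0081; 0.109 without B6N 3 and knockout 3).

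Transcripts were tested one by one because a gene total can hide changes within it. Of 68280 transcripts tested 54 were called (0.0791%), 37 risen and 17 fallen, from 52 genes, and 47 were protein coding. For 50 of the 54 the gene was called in the same direction. On simulated counts the transcript test found 5 of 50 transcripts changed 1.5-fold and 21 of 50 changed 2-fold. The gene test found 34 and 48 of 50 genes. The low number of called transcripts is therefore no measure of how many changed. Levels of transcripts are in TPM (transcripts per 1000000, scaled for length), and a share is the transcript's percent of its gene's TPM. These levels are estimates, since reads shared by transcripts of a gene were divided between them. The uncertainty of that division is not in the tests, SEs or SDs below. Atf4-201, the main coding transcript, went from 16.4 ± 0.86 TPM (SD, n = 4) in B6N to 26.5 ± 0.904 TPM (SD, n = 4) in the knockout (edgeR, adjusted p = 5.31e-06), while the retained-intron transcript Atf4-203 was at 0.97 and 0.968 TPM.

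Arhgef2-219 showed the clearest change within a gene. Arhgef2 encodes a microtubule-associated activator of the GTPase RhoA, and the gene itself was not called. The transcript was at 0.676, 0.88, 1.04 and 1.22 TPM in B6N and at 2.36, 3.54, 2.7 and 2.7 TPM in the knockout (1.62 ± 0.21, adjusted p = 0.00834), and at 0.804 to 1.67 TPM in the 8 other libraries of the fit. Its share of the gene was 2.51 ± 0.55% in B6N and 7.72 ± 1.28% in the knockout (SD, n = 4). Every knockout library stood above all 12 others.

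Phf23-209, from a gene of a PHD finger protein, fell as a transcript while its gene was not called. It was at 4.21, 3.94, 3.69 and 3.64 TPM in B6N and at 2.57, 2.11, 1.96 and 2.27 TPM in the knockout (-0.74 ± 0.09, adjusted p = 0.00609), and its share went from 52.9 ± 6.97% to 34.7 ± 5.71%. The other 2 called transcripts of uncalled genes were Chd5-202 (0.78 ± 0.13, adjusted p = 0.039) and Rhot2-206, which was at 0 in every B6N library and at 0.35, 0.37, 0.216 and 0.799 TPM in the knockout. Both of these calls ended whichever single library was left out.

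Shares of some called transcripts are given as values, since these transcripts were chosen for their change in level. Vgf-201 held 45.8 ± 2.58% of Vgf in B6N and 55.0 ± 4.42% in the knockout, Bcat1-203 held 42.8 ± 2.99% and 51.3 ± 4.88% of Bcat1, and the retained-intron transcript Ncl-202 held 66.0 ± 2.32% and 72.3 ± 1.81% of Ncl, the nucleolin gene. The adjusted p for their usage was 1.0 for each of the 3 transcripts in edgeR's test. Ncl-202 was at 19.4, 18.0, 19.7 and 20.1 TPM in B6N and at 21.9, 22.6, 22 and 25.4 TPM in the knockout (0.29 ± 0.04, adjusted p = 0.00624). Fitting the 8 libraries alone gave 11 called transcripts in all, and leaving out B6N 3 and knockout 3 gave 3.

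A test of transcript usage asked whether a transcript moved differently from the rest of its gene. The diffSpliceDGE test of edgeR called 10 of 10642 genes (0.094%), of which 1 was a called gene, Wars. On simulated counts it called more unchanged than changed genes, so these 10 are given as values only. A limma test with each transcript's own spread called 0 of 10642, with 559 at an unadjusted p under 0.05 and a smallest adjusted p of 0.0801. Arhgef2 had adjusted p-values of 0.000182 in the first test and 0.0835 in the second.

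Grin1, the obligatory NMDA receptor subunit gene, had 0.0103 and 0.723. The share of Grin1-205 was 11.5, 10.8, 10.4 and 11.6% in B6N and 5.2, 6.8, 4.0 and 7.2% in the knockout, and that of Grin1-207 was 9.1, 11.5, 8.0 and 8.0% in B6N and 16.3, 14.1, 19.5 and 12.9% in the knockout. The groups did not overlap for either. Cog3-203 was estimated at 0 TPM in B6N 2 and B6N 3, at 4.57e-09 and 3.44e-05 TPM in B6N 1 and B6N 4, and at 1.55, 1.92, 0.9 and 0.82 TPM in the knockout, but reached 1.56 TPM in the 8 other libraries.

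**Figure D4:**
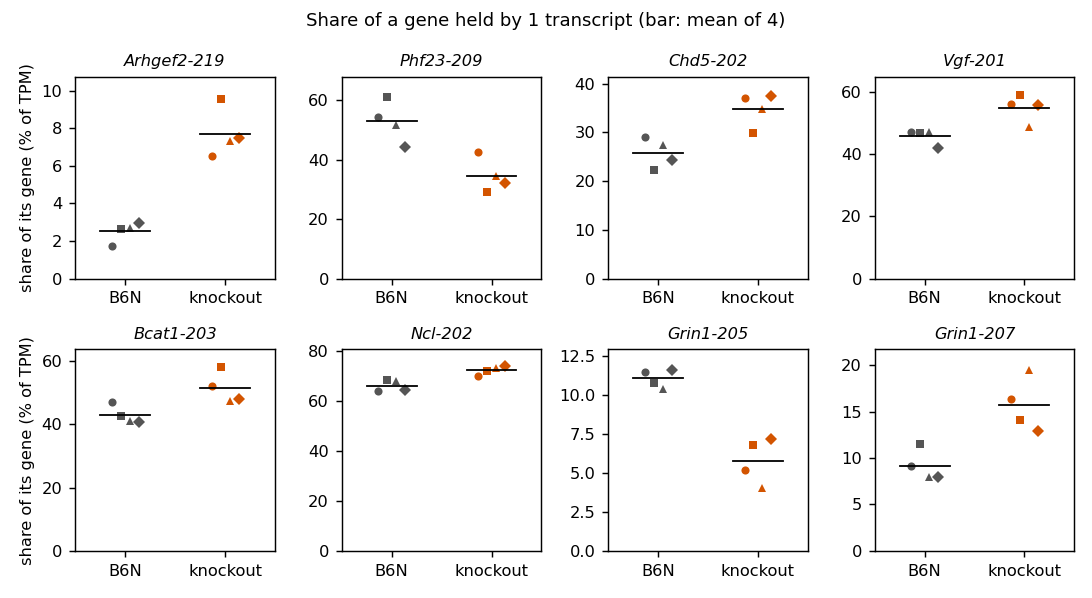
Share of its gene's estimated level, in percent, held by selected transcripts in each B6N and knockout library, 1 point per library. Arhgef2-219 lies between 1.71% and 2.97% in B6N and between 6.55% and 9.54% in the knockout.

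Shares of counts were compared for 17 transcript classes that held at least 0.1% of counts. The exact two-sided permutation test of 4 libraries against 4 cannot give a p below 0.0286, so a class alone could not pass after adjustment over the 17, and the lack of passing classes says nothing about stability. Mitochondrial ribosomal RNA reached that smallest value before adjustment, at 7.35, 7.0, 7.02 and 7.13% of counts in B6N and 6.71, 6.59, 6.8 and 6.92% in the knockout (exact permutation p = 0.0286, adjusted 0.324). Ribosomal RNA held 0.497 ± 0.0523% of counts in B6N and 0.401 ± 0.0436% in the knockout (SD, n = 4; exact permutation p = 0.0571), and unprocessed pseudogenes ran from 0.261% to 0.739% over the 8 libraries. Retained-intron transcripts held 4.7 ± 0.14% in B6N and 4.64 ± 0.149% in the knockout (SD, n = 4; exact permutation p = 0.5429).

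Risen genes outside the ATF4, amino acid and synthetase lists included many long ones. Among 14474 protein-coding genes at 1 CPM or more with a known span, 15.4% spanned over 100 kb. The share was 25.7% (57 of 222) in risen genes outside the lists, 0 of 30 in risen genes within them, and 13.7% (25 of 183) in fallen genes. Grin2b spans 460 kb and Kcnt2 368 kb. Risen genes were also better expressed, at a median of 65 CPM against 19.2 CPM for all. With genes divided by CPM into 3 groups of equal size, the shares in the highest group were 32.0% in risen genes outside the lists, 12.8% in fallen genes and 23.5% in all. In the middle group they were 14.8%, 18.8% and 13.2%, and in the lowest group 5.56%, 4.0% and 9.53%. The share in risen genes outside the lists was 15.7% with the length offset and 19.2% without B6N 3 and knockout 3. No test was made of these shares.

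**Figure D5:**
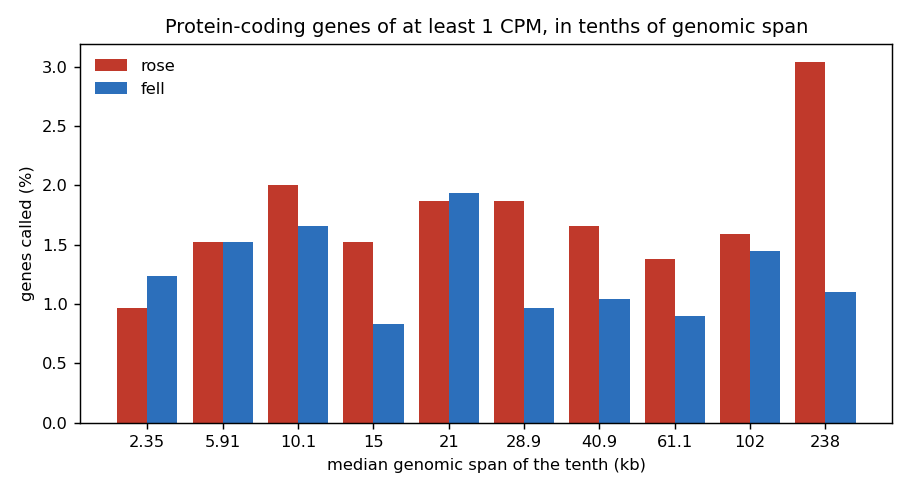
Percent of protein-coding genes at 1 CPM or more that rose (red) or fell (blue), in 10 equal groups of genes ordered by genomic span, with the median span of each group in kb on the horizontal axis. In the group of longest genes 3.04% rose, against 0.967% to 2.0% in the other groups.

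n-Tr20 was taken to be the RefSeq gene n-TRtct5, a match that the files themselves do not state and on which the positions here depend. RefSeq places n-TRtct5 on chromosome 1 at 173390329 to 173390402 of GRCm38, a span of 74 bases. Of 23 tested genes within 1 Mb, 0 were called by edgeR and 1 was at an unadjusted p under 0.05 (the olfactory receptor gene Olfr418, 0.53, adjusted p = 0.226). Their log2 fold changes ran from -0.583 to 0.54. The nearest called gene, Ddr2, a collagen receptor named for its position, lay 3.28 Mb away (0.54 ± 0.08, adjusted p = 0.000155). By symbol, 77.3% of tested genes had a RefSeq position.

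Hippocampus gave a further set of libraries of the same genotypes, with 3 libraries per group and poly(A) selection. The protocol text names the hippocampus mice B6JN, so their background is less certain. By Xist and Ddx3y 1 of the 6 libraries came from a female, knockout 1. In hippocampus 8 of 19352 genes were called (0.0413%), 6 risen (0.031%) and 2 fallen (0.0103%). Of these 7 were also called in forebrain in the same direction: Atf4, Chac1, Cars, Mthfd2, Slc7a3 and Cort rose and Ndnf fell. Col19a1, a collagen gene, was the other (-0.86 in hippocampus, adjusted p = 0.00923).

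Genes called in forebrain mostly had the same sign in hippocampus. This held for 407 of 468 (87.0%), against 61.0% of all 18063 genes tested in both. Of 31 risen genes in the ATF4, amino acid and synthetase lists 31 had the same sign, with a median log2 fold change of 0.31 in hippocampus and 0.33 in forebrain. Of 243 risen genes outside those lists 207 (85.2%) did, with medians of 0.13 and 0.22. Adar (0.33), Nudt3 (0.40), Bdnf (0.50), Scg5 (-0.41) and Cplx1 (-0.43) had hippocampal values close to their forebrain values or further from 0, with adjusted p-values between 0.105 and 0.381. Ndnf was at 44.5, 39.9 and 46.9 CPM in B6N and at 25, 21.4 and 24.5 CPM in the knockout (-0.89 ± 0.09, adjusted p = 0.0101), and Cort at 1.97, 1.89 and 1.86 CPM against 5.12, 6.43 and 4.94 CPM (1.53 ± 0.15, adjusted p = 0.0101). Vgf (0.05), Klf4 (0.10) and Lamp5 (-0.12) had values near 0 or of opposite sign there. Whether any gene's change differed between the tissues was not tested.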

How the data were processed

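The authors deposited estimated counts per transcript, with lengths and TPM values, for each forebrain library, and whole counts per gene for hippocampus. Per the submitters' processing notes, kallisto 0.42.4, HISAT2 2.1.0, Bowtie2 2.2.3, featureCounts and build mm10 were used. The role of each is not given in the sources used here. Estimated counts were summed per gene and rounded. All 16 batch 1 forebrain libraries entered 1 fit with edgeR 4.0.16 in R 4.3.3 (filterByExpr at a minimum count of 10, TMM scaling, robust quasi-likelihood test, two-sided). A gene was called at an adjusted p under 0.05. Transcripts were fitted in the same way, usage was tested for transcripts holding at least 5% of a gene, and limma 3.58.1 and DESeq2 1.42.0 served as alternatives. All 3 tests were tried on simulated data. Leaving out B6N 3 and knockout 3 together and the usage test with own spread were chosen after seeing the data. Named genes are those with the largest or best supported changes (15 per direction), called members of lists (up to 5) with up to 2 uncalled ones, and genes near n-Tr20. Iars, Aars and Tars were named for their motif, and Col19a1 and Ddr2 by position or call. The genes and lists were chosen with earlier results of these data known. Each library was taken as 1 animal, which the labels do not state outright, so p-values measure only the spread between these libraries. Libraries with the same number did not deviate together. Within groups likeness was uneven by chi-square of gene counts per degree of freedom (higher is less alike). B6N 1 with 2 gave 3.56 and B6N 3 with 4 gave 3.14, against 7.55 to 8.93 across these pairs. Knockout 1 gave 8.27 to 10.3 with the other knockouts, which gave 2.92 to 5.92 among themselves. Unprocessed pseudogene shares were 0.659% to 0.739% in B6N 3, B6N 4 and knockout 1, and 0.261% to 0.416% in the rest. The fit did not model this pattern, and its source was not tested. Some called genes are not reported here.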

Additional observations from a re-analysis of the deposited data

Results flagged for a closer look

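In 15 of 240 groups of 4 libraries screened, 1 library stood apart from the other 3 by Dixon's test. Chance alone gives about 1 in 20. Among genes, the library apart was B6N 4 for Atf4 (54.7 CPM), Hars (63.2 CPM) and Slc7a1 (36.5 CPM), B6N 3 for Cox6a2 (1.91 CPM), B6N 2 for Gm14415 (1.54 CPM) and B6N 1 for Tmem181b-ps (73.8 CPM, against 100 to 102 CPM in the other B6N libraries). In the knockout it was knockout 1 for Atf5 (8.48 CPM), knockout 2 for Nudt3 (227 CPM) and Aldh18a1 (28.1 CPM), knockout 3 for Chac1 (8.12 CPM) and knockout 4 for Fmo2 (2.46 CPM). Among shares of counts, within the 4 knockout libraries, knockout 4 was highest for antisense transcripts (0.804%), processed transcripts (2.02%) and sense intronic transcripts (0.145%), and knockout 1 for unprocessed pseudogenes (0.675%).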

How the results depend on the processing

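The count of 481 genes was within 1.5 times of the original under 8 of the 10 alternatives that did not leave out a single library. It was 174 with transcript length offsets, 157 without B6N 3 and knockout 3 together, and ran from 262 (without knockout 3) to 751 (without knockout 4) when 1 library was left out. Of the 481 calls 192 remained in all 8 fits that left out 1 library and 89 in all 18 alternatives. With the length offset 158 remained and 3 changed sign. The 54 transcripts became 11 with the 8 libraries alone, 111 at a minimum count of 50, 532 with DESeq2, 3 without B6N 3 and knockout 3, and 23 to 88 when 1 library was left out. The 10 usage genes became 6 at a minimum count of 50, 4 at a minimum share of 10%, 155 with no minimum share, 69 with limma voom, 0 with each transcript's own spread, 5 without B6N 3 and knockout 3, and 8 to 22 when 1 library was left out. The 8 hippocampus genes became 135 with no filter, 134 with DESeq2 and 0 to 10 when 1 library was left out. The cause of these differences was not tested. Biotype shares gave 0 calls, which the smallest possible p nearly fixes. With the replicate number as a block the counts were 680 genes, 0 transcripts, 7 usage genes and 6 hippocampus genes. The numbers do not pair the forebrain libraries (correlations of deviations -0.17, 0.1, -0.13 and 0.05).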

Other observations

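Some of the larger changes lay in genes of low level or with little known about them. Fxyd3, a regulator of the sodium pump, was at 0.857, 1.72, 0.895 and 1.16 CPM in B6N and at 2.47, 2.89, 2.24 and 2.12 CPM in the knockout (log2 fold change 1.06 ± 0.22, adjusted p = 0.00573; 0.347 with the length offset). In hippocampus its value was -0.33. C730002L08Rik rose by 0.71 ± 0.11 (adjusted p = 0.00032) and Gm26848, a lincRNA, fell by 0.56 ± 0.08 (adjusted p = 0.000133), at 7.86 to 9.44 CPM in B6N and 5.83 to 6.06 CPM in the knockout. Of the fallen genes under 6 CPM, the call of Fmo2, a monooxygenase gene, ended without knockout 3 (adjusted p = 0.169) and that of Stra6, the retinol transporter gene, without knockout 1 (0.22).

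Among 10 hippocampal markers 2 rose, Bok, a BCL2 family member (0.52 ± 0.09, adjusted p = 0.00152), and the mannosidase gene Man1a (0.23 ± 0.05; 0.0672 without knockout 1), with a median of -0.05 over the list. In hippocampus itself Bok had 0.55 and Man1a -0.13, neither called. The glucocorticoid-induced gene Tsc22d3 was at 68 to 73.6 CPM in B6N and at 51.4 to 61.9 CPM in the knockout (-0.32 ± 0.06, adjusted p = 0.00704), while 2 of the 18 genes of that list were called in all, the other being Cdkn1a, which rose.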
